A study of Mus musculus with 4 samples.

Results

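The genes described here are 50 genes of mitosis, of the spindle and of the kinetochore, out of 27745 gene names on the array, measured in fetal mouse lung. They were taken by name: every non-control spot whose deposited gene name was one of the 50 was kept, Cdk1 also under its older name Cdc2a, which gave 89 probes with 1 spot each. All 50 genes had at least 1 probe, 29 had 2 or more, and 48 could be tested. The lungs were collected at E18.5, shortly before birth, from wild type fetuses (Fgf8+/+) and from Fgf8 hypomorphic mutants (Fgf8H/-), which carry reduced function of the secreted growth factor gene Fgf8. The array titles write the mutants as AP/N, and how these letters map to the alleles in the protocol was not settled here. Both genotypes were littermates on a c57nl7/sv129 background. Lobes were dissected free of large airways and vessels, each RNA sample combined 3 lungs of 1 genotype, and 4 pairs of pools were hybridised to 4 two-colour arrays, wild type in Cy3 and hypomorph in Cy5. The dyes were not exchanged on any array, so an effect of the dye and an effect of genotype on a probe cannot be told apart. The tissue is a mix of the cells of these dissected lobes, in which a larger share of dividing cells and more RNA per dividing cell cannot be told apart.

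Mitosis begins when cyclin B and the kinase Cdk1 drive chromosome condensation and the building of a bipolar spindle. Kinetochores on the centromeres attach to microtubules, the spindle checkpoint holds the cell until every chromosome is attached, and the anaphase-promoting complex then marks securin and cyclin B for destruction so that the chromatids part and the cell divides. Most of these genes are transcribed in a burst in late G2 and mitosis. Their promoters are known for the cell cycle homology region, a short element bound by the DREAM and MuvB complexes that keep the genes silent in resting cells, and for CCAAT boxes bound by NF-Y. In the fetal lung, proliferation slows as the distal airspaces thin and mature before birth.

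The promoters are shown first because these elements are what the genes are known to share. The RefSeq promoter table of build GRCm38.p6, which covers 250 bases before to 50 after each annotated start, held 43 of the 50 genes. Aurkb, Ccna2, Cdc25c, Incenp, Kif20a, Smc4 and Tpx2 were not in it. The 80 bases before the start are printed 5′ to 3′ on the gene's strand. Genes shown whose RNA rose in the hypomorph are the cyclin-dependent kinase Cdk1, topoisomerase Top2a, the motor Kif11, Cdc20 and Ube2c. Cdc20 activates the anaphase-promoting complex, and Ube2c is its ubiquitin-conjugating enzyme. The chromatin protein Hmgb2 is also shown, and its RNA missed the threshold. Capitals mark TTTGAA or TTCGAA, the letters of a cell cycle homology region, and CCAAT, each read on either strand, so that TTCAAA and ATTGG are their reverse forms.
Cdk1, chr10:69352913-69352992, minus strand: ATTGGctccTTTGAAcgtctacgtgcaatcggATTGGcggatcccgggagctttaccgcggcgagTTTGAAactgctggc
Cdc20, chr4:118437344-118437423, minus strand: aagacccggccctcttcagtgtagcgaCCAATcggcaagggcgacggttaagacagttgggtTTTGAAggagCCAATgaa
Ube2c, chr2:164769849-164769928, plus strand: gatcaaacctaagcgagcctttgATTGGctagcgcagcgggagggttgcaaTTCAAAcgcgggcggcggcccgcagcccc
Top2a, chr11:99024190-99024269, minus strand: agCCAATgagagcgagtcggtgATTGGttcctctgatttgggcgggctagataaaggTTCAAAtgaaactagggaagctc
Kif11, chr19:37376302-37376381, plus strand: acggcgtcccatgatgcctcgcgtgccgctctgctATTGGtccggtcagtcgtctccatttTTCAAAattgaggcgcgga
Hmgb2, chr8:57511763-57511842, plus strand: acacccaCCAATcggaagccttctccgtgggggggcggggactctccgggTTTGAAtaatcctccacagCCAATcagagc

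All 6 windows hold a CCAAT match upstream of a match to the cell cycle homology region, and the latter match nearest to the start begins between -30 in Hmgb2 and -15 in Cdk1. These 6 windows were picked for display, and their layout does not stand for the 43 genes. In other genes the only such match began after the start, at 15 in Bub1, 3 in Cenpf and 8 in Ttk. Over the whole window, 31 of the 43 genes (72.1%) had a TTTGAA or TTCGAA match, against 21.7% of the 27025 genes in the table and 20.2% of its 17492 protein-coding genes. TTTGAA alone was found in 67.4% of the mitotic genes and 20.2% of all genes, and TTCGAA in 9.3% and 1.8%. A CCAAT match was found in 79.1% of the mitotic genes against 41.1% of all genes, and both motifs together in 67.4% against 8.61%. Matches to the cell cycle homology region clustered near the start, with 26 of 43 genes (60.5%) having one that began within 40 bases of it, against 5.2% of all genes. Among genes that act before mitosis, in DNA replication and at the G1/S step, 23.1% of 39 genes had a TTTGAA or TTCGAA match anywhere in the window, 10.3% had one near the start and 59% had a CCAAT match. The motifs were also frequent in a list of other mitosis genes, where 59.7% of 62 genes had a TTTGAA or TTCGAA match, 45.2% had one near the start and 37.1% had both motifs. Cdc25b, the only mitotic gene with a mean ratio below 0, had a match at position 8 after the start and a CCAAT match at -28. Neither motif was found for Birc5, Mad2l1, Melk, Ncaph, Nusap1, Plk4 or Pttg1, of which the 5 that could be tested all rose. A match of letters is a description and not a measured binding site.

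**Figure D1:**
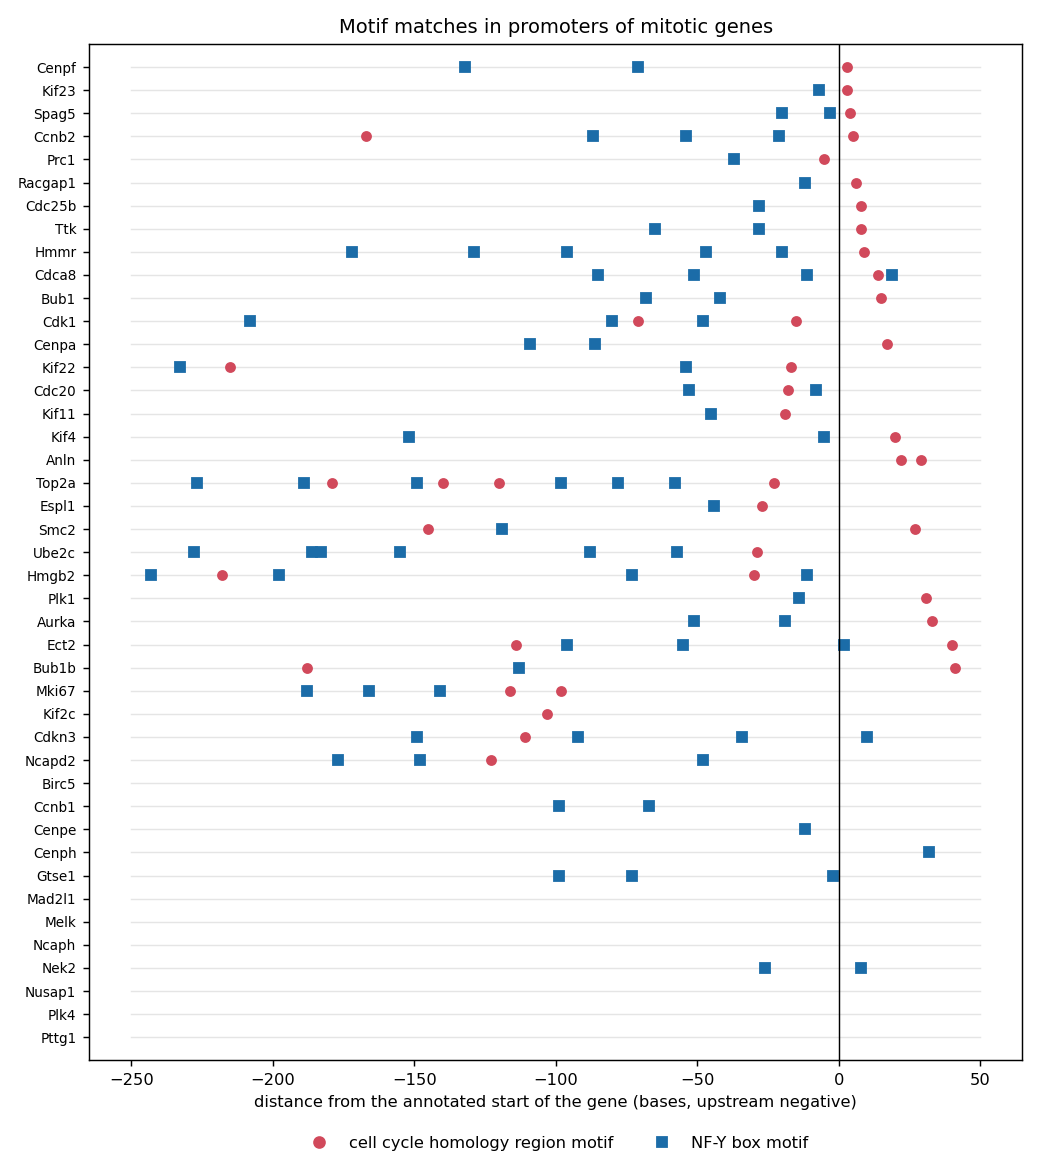
Position of each motif match in the promoters of the 43 mitotic genes in the table, 1 line a gene (first promoter listed), in bases from the annotated start, which lies at the black line. Red circles are matches to the cell cycle homology region and blue squares are matches to the NF-Y box, and the 26 genes with a red circle within 40 bases of the start stand at the top.

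The mitotic genes were higher in the hypomorph lung almost throughout. Of the 48 genes tested, 44 rose, none was lower (none at an unadjusted p under 0.05 either), and 4 did not pass the test, when each gene was represented by its brightest probe (limma, Benjamini-Hochberg adjusted p under 0.05 over 20081 genes). Over all genes tested, 14.3% rose and 13.5% fell. The median log2 ratio of hypomorph over wild type was 0.48 over the 48 genes, a 1.39-fold difference, and -0.00 over all genes. Single arrays gave medians of 0.61, 0.46, 0.52 and 0.35 for replicates 1 to 4. The ratio was above 0 on every array with a value for 45 of the 48 genes, the others being Hmmr, Smc4 and Cdc25b. Replicate 4 gave the lowest of the ratios for 38 genes and replicate 1 the highest for 25. The changes were small and even: among the 44 genes that rose, the fold ranged from 1.23 for Kif4 to 1.60 for Melk, and 9 genes reached 1.5-fold. The SD between arrays had a median of 0.12. In 39 of the 48 genes the lowest hypomorph pool lay above the highest wild type pool, against 8.19% of all genes. Of the 9 genes whose genotypes overlapped, Mad2l1, Cdc25c, Kif2c, Cdkn3 and Ncaph nevertheless rose, since the test compares the pools within each array.

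**Figure D2:**
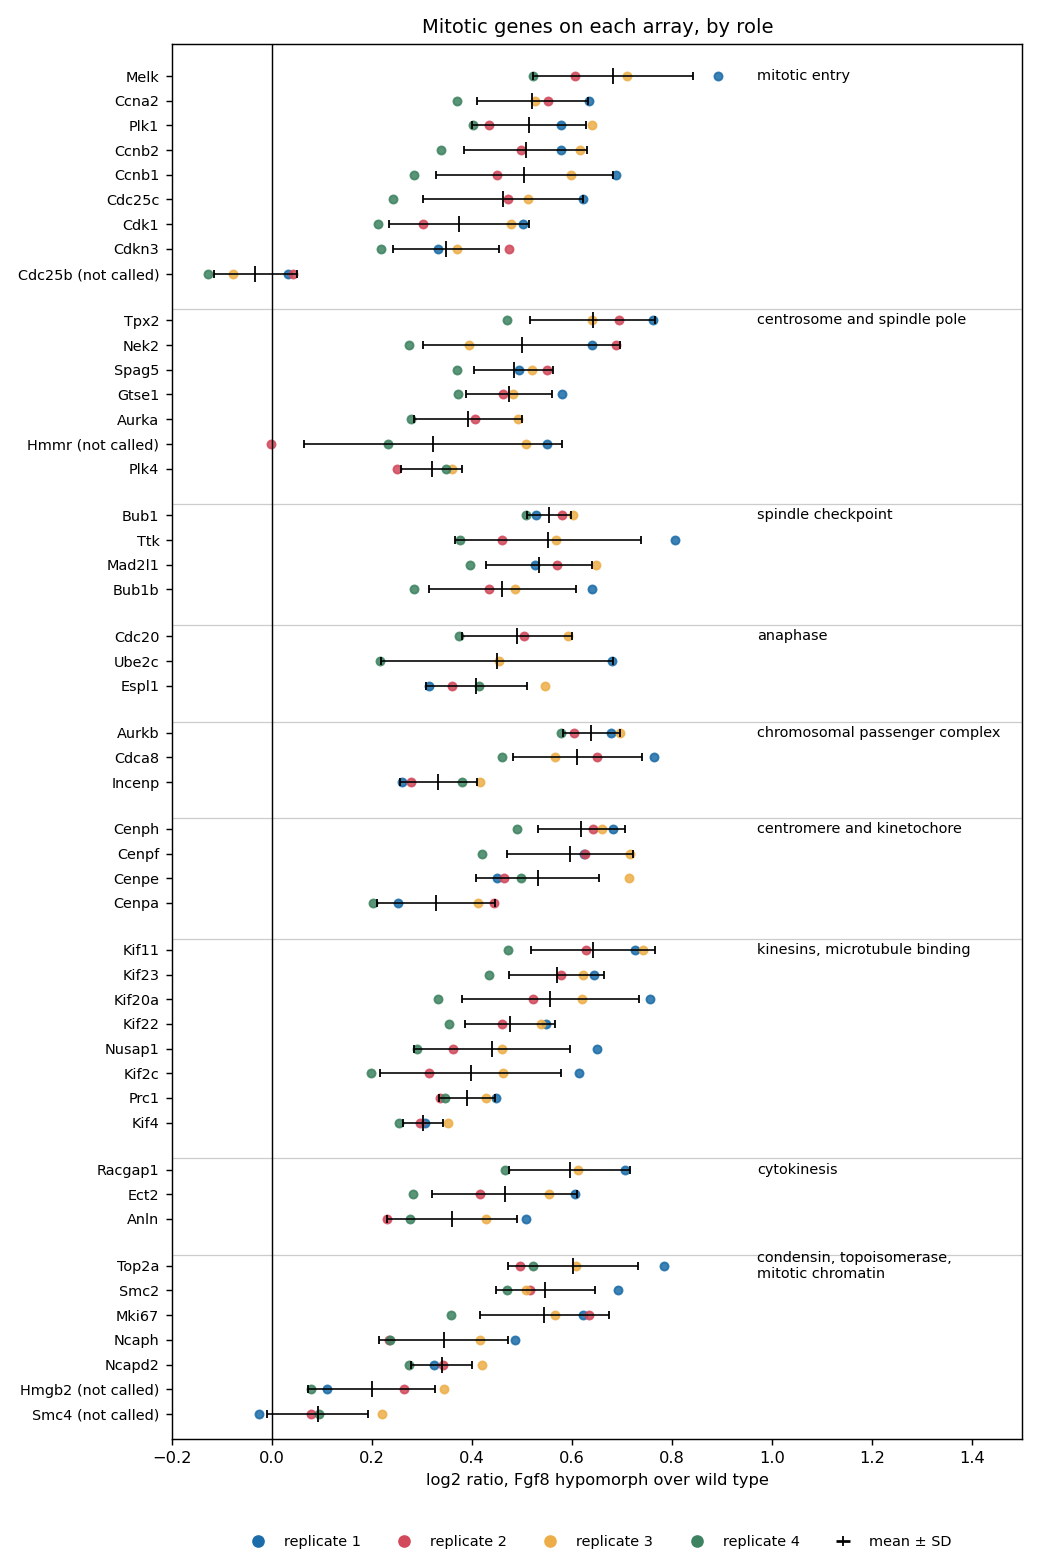
Log2 ratio of hypomorph over wild type (horizontal axis) of the 48 mitotic genes tested, grouped by role and ordered by mean; coloured points are the 4 arrays and the black marks are the mean ± SD. Except for Cdc25b, Smc4 and 1 array of Hmmr, all points lie right of 0, and the points of replicate 4 lie mostly to the left within a gene.

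Spot counts were similar on all arrays. Of 43379 non-control spots, between 32491 and 34519 were well above background in each channel, and between 2136 and 2219 carried an outlier mark and were left out. The arrays did not weigh alike in the calls, as given at the end. The scanner software reported slopes between 0.690 and 0.718 for observed against expected log ratios of spike-in RNAs. That slope was not computed for the ratios used here, which may also understate the differences in RNA. Fgf8 itself read -0.31, -0.23, -0.09 and -0.09, a mean log2 ratio of -0.18 ± 0.11 that did not pass the threshold (limma, adjusted p = 0.0538), and whether its probe covers the altered part of the allele is unknown here. The values that follow are log2 ratios, hypomorph over wild type, with mean and SD over 4 arrays unless another n is given, and adjusted p-values are those of limma over all genes. Levels are log2 signals of 1 channel, after each spot's mean brightness over both channels was quantile-normalized between arrays. They compare pools for the same probe, not genes with each other. The tested probes of all 48 genes were well above background in both genotypes on 4 of 4 arrays, and no mitotic probe was saturated.

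Among the 9 genes of mitotic entry, 8 rose, with a group median of 0.50. Melk, a kinase of dividing and progenitor cells, read 0.89, 0.60, 0.71 and 0.52. The pools did not overlap, wild type lying between 10.94 and 11.15 and hypomorph between 11.54 and 11.91. The mean of 0.68 ± 0.16 was the highest of the 48 genes, a 1.60-fold rise (adjusted p = 0.00299). The cyclins rose alike: Ccna2, which acts in S phase and G2, by 0.52 ± 0.11, and the mitotic cyclins Ccnb1 and Ccnb2 by 0.50 ± 0.18 and 0.51 ± 0.12. Plk1, the kinase that promotes mitotic entry and spindle assembly, rose by 0.51 ± 0.11, and Cdk1, the catalytic partner of these cyclins, by 0.37 ± 0.14. The phosphatase Cdkn3, which acts on cyclin-dependent kinases, rose by 0.35 ± 0.11. Cdk1 was not called without replicate 2 or without replicate 3, with adjusted p-values of 0.0541 and 0.0506.

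The CDC25 phosphatases, which remove the inhibitory phosphates from Cdk1, did not move as one. Cdc25c rose by 0.46 ± 0.16, although not without replicate 2 (adjusted p = 0.0518). The brightest Cdc25b probe read 0.03, 0.04, -0.08 and -0.13, a mean of -0.03 ± 0.08 (adjusted p = 0.621). Its pools overlapped, with wild type between 13.26 and 13.42 and hypomorph between 13.29 and 13.41. With median centring in place of loess, the same probe read 0.28. A nearby probe for Cdc25b gave another picture, described with the probe comparisons.

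Of the 7 genes of the centrosome and spindle pole, 6 rose, with a median of 0.47. Tpx2, which activates Aurora A and nucleates spindle microtubules, read 0.76, 0.69, 0.64 and 0.47. Every hypomorph pool lay above every wild type pool, at 11.27 to 11.61 against 10.57 to 10.97, and the mean was 0.64 ± 0.13 (adjusted p = 0.00248). The kinase of centrosome separation, Nek2, rose by 0.50 ± 0.20, but not without replicate 2 (adjusted p = 0.0536). Spag5, a spindle-pole protein also called astrin, read 0.49, 0.55, 0.52 and 0.37, with no overlap between the genotypes. Gtse1, a microtubule-binding regulator of G2 and mitosis, rose by 0.47 ± 0.09. Aurka, the Aurora A kinase that Tpx2 activates, rose by 0.39 ± 0.11 (n = 3). Without replicate 2 or 3, Aurka kept only 2 values and had adjusted p-values of 0.0856 and 0.0675.

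The lowest of this group were the kinase of centriole duplication, Plk4, and the hyaluronan receptor Hmmr, which acts at the spindle. Plk4 read 0.25, 0.36 and 0.35 on replicates 2, 3 and 4, a mean of 0.32 ± 0.06 (n = 3, adjusted p = 0.0146), and its pools did not overlap. That call was lost without replicate 2, 3 or 4, with adjusted p-values of 0.0677, 0.0792 and 0.062. Hmmr read 0.55, -0.00, 0.51 and 0.23. With 1 array at 0 its spread was the widest of the 48 genes, and its mean of 0.32 ± 0.26 did not pass (adjusted p = 0.0569). It was also the dimmest of the tested genes' probes.

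All 4 spindle checkpoint genes rose, with a median of 0.54. Bub1, a checkpoint kinase at the kinetochore, read 0.53, 0.58, 0.60 and 0.51. These values were among the closest of any mitotic gene, and the pools did not overlap (mean 0.55 ± 0.04, adjusted p = 0.00153). The checkpoint kinase Ttk, known as Mps1, rose by 0.55 ± 0.19, and Mad2l1, the checkpoint protein that restrains Cdc20, by 0.53 ± 0.11. Bub1b, which encodes BubR1 of the mitotic checkpoint complex, read 0.64, 0.43, 0.49 and 0.28. It was the lowest of this group at 0.46 ± 0.15 (adjusted p = 0.00672), with every hypomorph pool above every wild type pool.

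The genes that carry the cell into anaphase rose too, as far as they could be measured. Cdc20, the activator of the anaphase-promoting complex, read 0.50, 0.59 and 0.37 on replicates 2, 3 and 4. The pools were separate and the mean was 0.49 ± 0.11 (n = 3, adjusted p = 0.00791), although the call was lost without replicate 2 (adjusted p = 0.0632). Ube2c, the ubiquitin-conjugating enzyme of the same complex, had the widest range of the group, with 0.68, 0.45 and 0.22 on replicates 1, 3 and 4. Its mean was 0.45 ± 0.23 (n = 3, adjusted p = 0.0291), and its call was lost with the scanner's processed signals (adjusted p = 0.0503) and with replicate 2 or 3 left out (adjusted p = 0.066 and 0.104). Espl1, the separase that cuts cohesin, read 0.31, 0.36, 0.55 and 0.41. It was the lowest of the group and still non-overlapping, at 0.41 ± 0.10 (adjusted p = 0.00543).

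Securin, Pttg1, which inhibits separase, could not be tested, because the scanner software marked the local background of its only spot as an outlier on 3 of the 4 arrays. With marked spots kept, it read 0.10, 0.16, 0.17 and 0.23, a mean of 0.17 ± 0.05 (1.12-fold, adjusted p = 0.0316). That mean lies below those of all tested mitotic genes except Smc4 and Cdc25b, and all 4 arrays lie above 0. Birc5, which encodes survivin of the chromosomal passenger complex, had marks on 2 arrays. With them kept, it read 0.53, 0.57, 0.66 and 0.46, a mean of 0.56 ± 0.08 (adjusted p = 0.00169).

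The chromosomal passenger complex corrects faulty attachments and later steers cytokinesis, and all 3 of its 4 genes that could be tested rose. Its kinase Aurkb read 0.68, 0.60, 0.69 and 0.58. The hypomorph pools, at 11.00 to 11.36, lay above the wild type pools at 10.39 to 10.68, and the mean of 0.64 ± 0.06 had the smallest adjusted p of the mitotic genes (0.00137). Cdca8, which encodes borealin, read 0.76, 0.65, 0.57 and 0.46, with separate pools (mean 0.61 ± 0.13). Incenp, the scaffold of the complex, read 0.26, 0.28, 0.42 and 0.38. Its rise was about as large as the smallest ones here, at 0.33 ± 0.08 (1.26-fold, adjusted p = 0.00668), and the pools did not overlap.

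All 4 centromere and kinetochore genes rose, with a median of 0.56. Cenph, a subunit of the inner kinetochore, read 0.68, 0.64, 0.66 and 0.49, with a mean of 0.62 ± 0.09 (adjusted p = 0.0017). Cenpf, a large protein of the outer kinetochore that is used as a proliferation marker, read 0.62, 0.63, 0.72 and 0.42. Both had hypomorph pools entirely above the wild type pools. The kinetochore motor Cenpe rose by 0.53 ± 0.12. Cenpa, the histone H3 variant that marks the centromere, read 0.25, 0.44, 0.41 and 0.20. It was lowest, at 0.33 ± 0.12 (adjusted p = 0.0116), and was not called without replicate 2 or 3 (adjusted p = 0.0659 and 0.0554).

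All 8 kinesins and microtubule-binding genes rose, with a median of 0.46. Kif11, the motor that pushes the spindle poles apart, read 0.72, 0.63, 0.74 and 0.47. Hypomorph pools lay at 9.71 to 10.06 and wild type pools at 9.08 to 9.33, and the mean was 0.64 ± 0.12 (1.56-fold, adjusted p = 0.00246). The central spindle motors Kif23 and Kif20a rose by 0.57 ± 0.09 and 0.56 ± 0.18, and the chromosome-arm motor Kif22 by 0.47 ± 0.09. The microtubule bundlers Nusap1 and Prc1 rose by 0.44 ± 0.16 and 0.39 ± 0.06. Kif2c, which depolymerises microtubules at the centromere, rose by 0.40 ± 0.18, though not without replicate 2 or 3 (adjusted p = 0.0649 and 0.0629). Kif4, a chromosome-bound motor, read 0.31, 0.30, 0.35 and 0.25. This was the smallest rise of any gene that passed and also the one with the smallest spread, at 0.30 ± 0.04 (adjusted p = 0.00598), and its pools were separate.

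The 3 cytokinesis genes rose, with a median of 0.46. Racgap1, a subunit of centralspindlin, read 0.71, 0.61 and 0.47 on replicates 1, 3 and 4, with a mean of 0.59 ± 0.12 (n = 3, adjusted p = 0.00586) and no overlap of pools. Ect2, the exchange factor that activates RhoA at the furrow, read 0.61, 0.42, 0.55 and 0.28, also without overlap. Anln, the anillin of the contractile ring, read 0.51, 0.23, 0.43 and 0.28. It was lowest at 0.36 ± 0.13 (adjusted p = 0.0104), with separate pools, and was not called without replicate 3 (adjusted p = 0.0507).

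Of the 7 genes of condensed chromatin 5 rose, with a median of 0.34, the lowest of the 9 role groups. Top2a, which untangles sister chromatids, read 0.78, 0.50, 0.61 and 0.52. Its pools were separate and its mean was 0.60 ± 0.13 (1.52-fold, adjusted p = 0.00298). The proliferation marker Mki67, which coats mitotic chromosomes, rose by 0.54 ± 0.13. Of the condensin genes, Smc2 rose by 0.55 ± 0.10, Ncaph by 0.34 ± 0.13 and Ncapd2 by 0.34 ± 0.06, the last with single values of 0.32, 0.34, 0.42 and 0.27 and no overlap. Ncaph was not called without replicate 3 (adjusted p = 0.0552). Smc4, the partner of Smc2 in every condensin, read -0.03, 0.08, 0.22 and 0.09. Its pools overlapped and its mean was 0.09 ± 0.10 (adjusted p = 0.222). It was the brightest of the 48 probes, and with median centring it read 0.60. Hmgb2, a DNA-bending protein abundant in dividing cells, read 0.11, 0.26, 0.34 and 0.08, overlapping between genotypes, with a mean of 0.20 ± 0.13 (adjusted p = 0.0507). It lay just outside the threshold and was called higher under 11 of 20 alternatives, with adjusted p-values between 8.64e-05 and 0.178 over all 20.

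Because many genes had several probes, each gene's brightest probe could be set against the others. Of the 89 probes, 80 were kept, and 63 of these rose, against 12.7% of all 30008 probes, while 1 fell. In 25 genes there were 32 such pairs, and in 9 of them the ratios differed (limma on the difference, adjusted p under 0.05), against 16.6% of 9835 pairs over all genes. In 14 of the 25 genes every kept probe rose. In 8 of the 9 differing pairs the brightest probe had the higher ratio. Of the 9 other probes in these pairs, 6 were dim, with a log2 brightness under 8, a limit chosen after the values were seen. Of 12 pairs whose other probe was dim 6 differed, and of the 20 other pairs 3 differed. The same split of all 9835 pairs was not counted. Over all kept probes, 2 of 13 under that limit rose, with a median ratio of 0.18. Above it, 61 of 67 rose, with a median of 0.47. Among all genes, each by its brightest probe, 9.86% rose at a brightness of 6 to 8, with a median of 0.01. From 8 to 16, between 13.5% and 17.2% rose.

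The clearest pair was Cdc25b. Its brightest probe lies at chr2:130889616-130889675 in build mm8, and the probe at chr2:130889814-130889870 read -0.38, -0.44, -0.41 and -0.49. This was the single mitotic probe that fell, at -0.43 ± 0.05 (adjusted p over all probes 0.00283), with a brightness close to that of the first. On every array the brightest probe read higher, by 0.41, 0.49, 0.34 and 0.36, a difference of 0.40 ± 0.07 (limma, adjusted p = 0.0129). It was the only pair still called with the scanner's processed signals (0.36, adjusted p = 0.0364). The third probe for Cdc25b, at chr2:130884068-130884127, was dim and read -0.01 ± 0.09. None of the 3 probes rose, and with the mean of all 3 as the gene's value Cdc25b was lower (-0.16, adjusted p = 0.0427). No annotation of build mm8 was used here, so the exons or UTR that these probes match are not given.

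Ncapd2 differed in the opposite sense. Its brightest probe read lower than the other by 0.28, 0.23, 0.18 and 0.13, a difference of -0.20 ± 0.07 (adjusted p = 0.0356), although both probes rose. Cenph, Cdca8 and Cenpa each had a probe that the array design names by a cDNA clone in place of a reference transcript. These probes read 0.15, 0.00 and 0.05, so the brightest probes were higher by 0.47 ± 0.25, 0.61 ± 0.38 and 0.28 ± 0.11. The remaining pairs were Kif11 (0.45 ± 0.11, n = 3), Spag5 (0.33 ± 0.10), Ect2 (0.31 ± 0.10) and Cenpf (0.26 ± 0.11), each against a dim probe for the same reference transcript. With the processed signals, which differ from the main values in both background and dye correction, the Kif11 difference was 0.02 and that of Ect2 0.16. Without background subtraction alone they were 0.41 and 0.29, and both were still called. None of the 9 pairs was called without replicate 2 or without replicate 3, and 2 pairs were called without replicate 4.

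**Figure D3:**
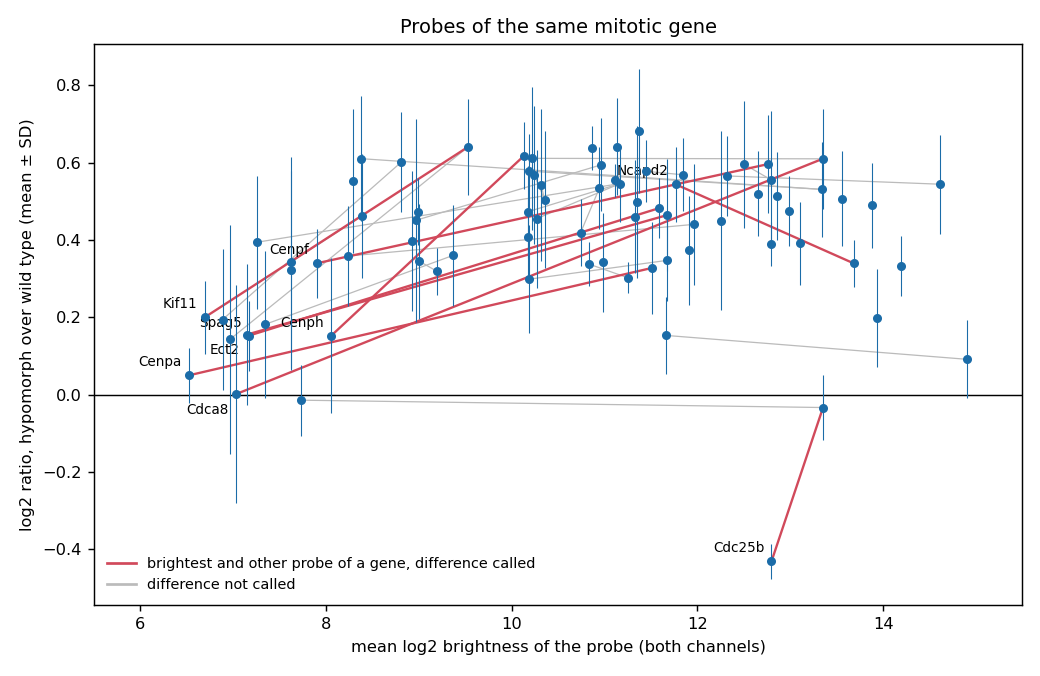
Mean log2 ratio ± SD (vertical axis) of the 80 kept probes of mitotic genes against their mean log2 brightness over both channels. Lines join the brightest probe of a gene to its other probes, in red for the 9 pairs that differed; most red lines run down to a dim probe on the left, whereas Cdc25b joins a pair of bright probes.

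Marked spots bear on 2 further genes. The brighter Hmgb2 probe carried a background mark on 4 of 4 arrays and was left out. With marks kept it read 0.63, 0.85, 0.83 and 0.51, a mean of 0.71 ± 0.16 that passed the test (adjusted p over all probes 0.00225), against 0.20 for the probe tested. Its log2 brightness was 15.94. Of all genes between 14 and 16, 13.5% rose, with a median of -0.06. Of the 161 genes above 16, 51.6% rose, with a median of 0.26. The brighter Top2a probe was marked on 3 arrays, and with marks kept it read 0.65 ± 0.14, close to the tested probe.

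Other genes of the cell cycle were read from lists that do not overlap with the 50. Their counts stand beside 14.3% of all genes that rose and 13.5% that fell. Of 60 other mitosis genes measured, 45 rose, with a median of 0.42, and between 30 and 46 rose with an array left out. The highest were the condensin II subunit Ncapg2 (0.73 ± 0.11), Cdca5, which encodes the cohesin protector sororin (0.70 ± 0.10), and the kinetochore subunit Cenpm (0.67 ± 0.11). The lowest were the spindle-pole organiser Numa1 (-0.19 ± 0.02, n = 3) and the kinetochore genes Zwint (-0.05 ± 0.05) and Zw10 (-0.05 ± 0.06, n = 3). Numa1 was the single gene of this list that fell, but it turned to 0.47 with median centring and was not called without any 1 of the arrays (adjusted p between 0.0745 and 0.158). Among the subunits and regulators of the anaphase-promoting complex, many of which are needed outside mitosis too, 6 of 14 rose and none fell, with a median of 0.08. That count was 3 without replicate 1, 2 without replicate 2, 3 or 4, 2 with the processed signals and 13 with median centring. Under median centring 41.1% of all genes rose. Its inhibitor Fbxo5 (0.49 ± 0.04) and its G1 activator Fzr1 (0.38 ± 0.07) were highest.

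Genes that act before mitosis rose too. Of 48 genes of DNA replication and the G1/S step, 42 rose and none fell, with a median of 0.42. They were led by the maintenance methylation factor Uhrf1 (0.80 ± 0.11), the licensing factor Cdc6 (0.77 ± 0.11) and the helicase subunit Mcm5 (0.71 ± 0.09). Of 8 cyclins and kinases of G1, 5 rose, with Cdk4 at 0.33 ± 0.07 and Ccnd3 at 0.29 ± 0.06, the latter not called without replicate 2 (adjusted p = 0.0552). Leaving out replicate 1 gave 3 higher genes, replicate 2 gave 1, and replicate 3 or 4 gave 2, while the processed signals gave 3. The stress-linked cyclin Ccng1 was lower at -0.21 ± 0.06 after loess, but read 0.03 with median centring, and it lost the call without replicate 2, 3 or 4 (adjusted p = 0.0749, 0.087 and 0.0634).

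Of 20 transcription factors and repressors of the cell cycle measured, 9 rose and 4 fell. Without replicate 2 or 3 the count of lower genes was 1, and without replicate 4 and with the processed signals it was 2. Median centring gave 15 higher and none lower, where 41.1% of all genes rose. The E2F genes E2f7 (0.55 ± 0.08), E2f8 (0.53 ± 0.05) and E2f1 (0.50 ± 0.09) were highest. Foxm1 and Mybl2, the factors best known for switching on mitotic genes, rose by 0.37 ± 0.06 and 0.39 ± 0.05; they were singled out after their values were seen. Rb1, the retinoblastoma repressor, read -0.30, -0.50, -0.37 and -0.33. It was lower on 4 of 4 arrays (-0.37 ± 0.09, adjusted p = 0.00571), and with median centring it still lay below 0, at -0.15, without passing (adjusted p = 0.132). Lower values of E2f5 (-0.23 ± 0.12) and Lin52 (-0.18 ± 0.05) moved to -0.01 each with median centring. Neither was called without replicate 2 (adjusted p = 0.103 and 0.101), replicate 3 (0.0959 and 0.108) or replicate 4 (0.0666 and 0.0663).

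Inhibitors of cyclin-dependent kinases mostly read below 0 after loess. Of 6 measured, 3 fell and 1 rose. The count of lower genes was 0, 1 and 2 without replicates 2, 3 and 4, 1 with the processed signals and 1 with median centring, where 2 rose. Cdkn2c, which encodes p18 and is itself induced in cycling cells, rose by 0.38 ± 0.07. Cdkn1b, which encodes p27, read -0.32, -0.30, -0.15 and -0.28, a mean of -0.26 ± 0.08 (adjusted p = 0.0126). With median centring it read -0.00, and without replicate 2 it was not called (adjusted p = 0.0734). Cdkn1a, which encodes p21, read -0.30 ± 0.15, and Cdkn2b, which encodes p15, -0.38 ± 0.17 (n = 3). Neither was called with median centring (adjusted p = 0.239 and 0.916), with the processed signals (0.0705 and 0.0686), without replicate 2 (0.0872 and 0.0983) or without replicate 3 (0.0922 and 0.0789). Without replicate 4, Cdkn1a was not called either (adjusted p = 0.0749). The 1 gene lower with median centring was thus neither Cdkn1a nor Cdkn2b, and Cdkn1b read -0.00 there.

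**Figure D4:**
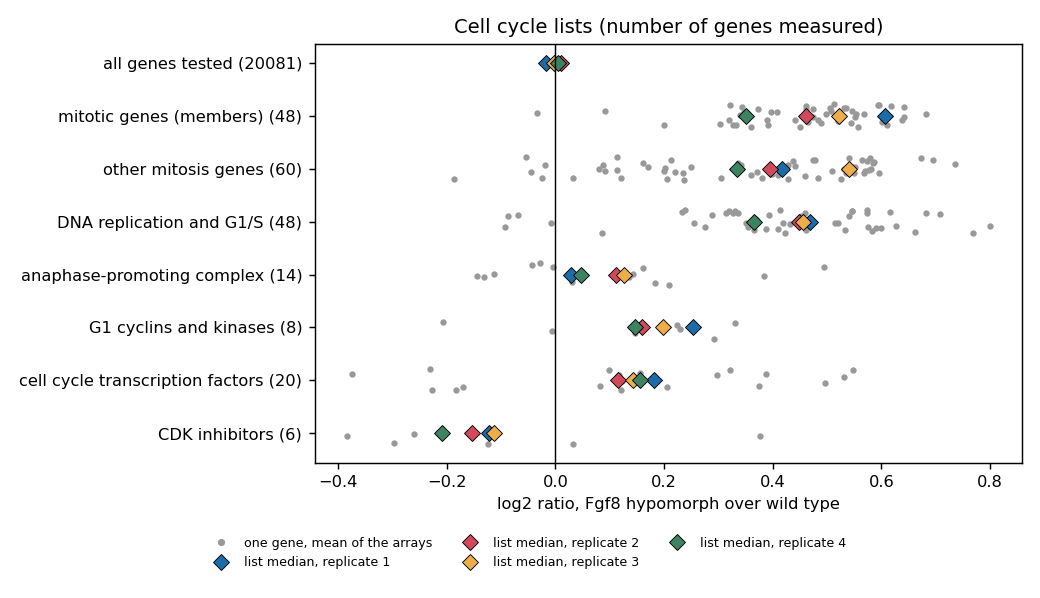
Log2 ratio of hypomorph over wild type (horizontal axis) for lists of cell cycle genes, with the number of genes measured in brackets. Grey dots are single genes (mean of the arrays, not drawn for all genes) and coloured diamonds the list's median on each array; the mitotic and replication lists lie between 0.33 and 0.61 on all 4 arrays, and the median of all genes lies near 0.

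Markers of lung and of other cells were read beside these values. For comparison, 14.3% of all genes rose and 13.5% fell, and with median centring 41.1% rose. Without replicates 2, 3 and 4 the shares of all genes that rose were 3.82%, 5.39% and 9.19%. The lists are short, and whether their counts differ from those shares was not tested. The lung's own markers, such as Nkx2-1 and Sftpb, were bright, and the epithelial list had a median of 0.10. Of its 10 genes 3 rose and 1 fell, but none rose without replicate 2, without replicate 3 or with the processed signals, 1 rose without replicate 4, and 8 rose with median centring. Endothelial markers gave 1 higher and 4 lower of 8, but 0 and 0 without replicate 2, 0 and 2 without replicate 3 or 4, and 6 and 0 with median centring. Mesenchymal and smooth muscle markers gave 1 and 2 of 8, and with median centring 5 and 0. Without replicate 2 or 3 they gave 0 and 1, and without replicate 4 they gave 0 and 2. Blood cells can bring dividing cells into a fetal organ. Macrophage markers gave none higher and 4 lower of 7 (median -0.21), 1 lower without replicate 2, 2 lower without replicate 3 or 4, and with median centring 2 higher and 0 lower. Erythroid markers gave none higher and 1 lower of 6 (median -0.19), with no lower call without replicate 2, 3 or 4. Granulocyte and mast cell markers gave 1 higher and 2 lower of 6, and 0 and 1 without replicate 2, 3 or 4. B cell markers gave no call among 5, and 1 higher with the processed signals. Among 10 markers of thymocytes and T cells, which a fragment of thymus would bring, Lck and Ptcra rose, with a median of 0.01 for the list, but Ptcra was not called without any 1 of the arrays (adjusted p between 0.0622 and 0.116), and with median centring 1 marker rose and 5 fell. The other 8 markers of this list were not called, and the list's median log2 brightness was 6.71. Brightness in this list ran from 6.33 to 11.89, and the lowest over all genes tested was 6.05. The ratios of its 10 markers lay between -0.05 and 0.31, with 7 above 0. Liver markers gave none higher and 1 lower of 4, and no call without replicate 2. The part of any of these cells in the mitotic values was not tested. With median centring the medians of the 9 marker lists lay between -0.18 and 0.46, against 0.70 for the mitotic genes and 0.13 for all genes. Median centring, unlike loess, takes out no trend of the ratio with brightness, and the lists were not matched for brightness. The dimmest marker list, of T cells, moved from 0.01 to -0.18. The brightest, of epithelium with a median brightness of 14.22, moved from 0.10 to 0.46. The mitotic genes had a median brightness of 11.55.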

How the data were processed

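Per the submitters' processing notes, Agilent Feature Extraction 9.5.1 extracted the spots. Mean and background intensity columns hold raw scanner values as deposited, and the processed intensities were background-subtracted and dye-normalized by that software, per the file headers. A log10 column, deposited by the authors and not used, gives processed red over green. The deposited series table of log2 values equals log2 of processed red over green, hypomorph over wild type, uncentred. From the files, mean intensities were corrected with limma 3.58.1 (R 4.3.3; normexp, offset 50) and loess-normalized within arrays (span 0.3). Control and outlier-marked spots were left out, and probes were kept that stood well above background in either channel on 3 or more arrays. Each gene's brightest probe was tested against 0 over all genes. Probe names and mm8 positions are those of the files; 72 of the 89 probes matched their gene through a RefSeq accession and 17 had no entry. The members and lists were chosen with earlier results of these data known. Values on all arrays are given for each role's highest and lowest gene and for genes with differing probes; of other lists, up to 3 highest and lowest genes are named. In 5 simulated tables of 18058 genes, 70% of 1.5-fold and 36.2% of 1.25-fold changes were called. Far fewer genes were changed in those tables than were called in the data, which makes the adjusted threshold stricter there. These shares therefore do not give the share of true changes called in the data. The number of arrays limits the precision. Alternatives covered background, offset, normalization, filter, marks, probe choice, names, test and each replicate.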

Additional observations from a re-analysis of the deposited data

How the results depend on the processing

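The count of 44 mitotic genes that rose was 41 of the 43 that could be tested with separate channels, lay between 44 and 48 over the other alternatives with all 4 arrays, and lay between 35 and 45 with an array left out. The lowest, 35 and 36, came without replicates 2 and 3, where the calls over all genes also dropped, to 767 higher and 707 lower and to 1083 and 1090. Without replicate 4 they were 1846 and 1806, and without replicate 1 they did not drop, at 2892 and 2887 against 2867 and 2714 with all arrays. Of the 44 genes, 33 kept their call in every alternative that tested them. The count of lower genes was 1 with the mean of all probes, that gene being Cdc25b. The median log2 ratio of 0.48 became 0.70 with median centring, where the median of all genes was 0.13 and 8249 genes were higher and 2387 lower, and it lay between 0.42 and 0.54 otherwise. Cdc25b reversed there, to 0.28. The 9 differing probe pairs were 1 with processed signals, 4 with an offset of 16 (an alternative chosen after seeing the data), 17 with median centring, and 0 to 11 with an array left out. With replicate 2 or 3 left out, 0 pairs passed limma's adjusted threshold, and 12 pairs each time had an unadjusted p under 0.05, against 14 with all arrays. The cause of these shifts was not tested. Each array's log ratio is a difference within 1 pair of pools, so the comparison is paired by array throughout.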
